A study of Mus musculus with 2 samples.

Results

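The S100 genes encode small calcium-binding proteins, and 8 of them were followed here in alveolar macrophages (AMs), the resident macrophages of the air spaces of the lung. The members were *S100a1*, *S100a4*, *S100a6*, *S100a8*, *S100a9*, *S100a10*, *S100a11* and *S100a13*, chosen by name, and all 8 were found among the 32285 genes of the count tables. AMs were sorted from C57BL/6 mice labelled as 10 weeks old, and droplet libraries of 3′ transcript ends were made, 1 from vehicle-control mice (the control library) and 1 from mice whose left lung had been inoculated with cells of the LLC line, a mouse lung carcinoma (the tumor library). The study defined AMs by flow cytometry within CD45+ autofluorescent lung cells, and the number of mice behind each library is not given in the sources used here.

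The level of each member was read in barcodes with at least 500 detected genes and at most 10% of their unique molecular identifiers (UMIs) from mitochondrial genes. That rule kept 6185 of 8485 control barcodes with 64850143 UMIs and 7666 of 9175 tumor barcodes with 68801889 UMIs. The median cell had 10370 UMIs in control and 8264 in tumor. The libraries shared 17 kept barcode sequences, or 0.275% of the control and 0.222% of the tumor cells. All 12 AM markers fixed for the check had UMIs in both libraries, with a summed level of 18932 CPM in control and 16013 CPM in tumor, where CPM is the summed UMIs of a gene scaled to the customary common total of all UMIs of the same cells. Each condition was 1 library and cells are not replicates, so no test was possible, and an effect of the tumor cannot be told apart from one of the library. Every interval below is an exact 95% interval for counting error only.

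S100 proteins work mostly as dimers that change shape on binding calcium and then hold a partner protein. *S100a10* and *S100a11* proteins pair with annexins at membranes, *S100a4* and *S100a6* proteins act on the cytoskeleton and are known from motile and growing cells, and *S100a1* protein is known best from muscle. *S100a8* and *S100a9* proteins form calprotectin, a main cytosolic protein of neutrophils that is released in inflammation, and both genes are also used by monocytes.

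All 8 genes lie on mouse chromosome 3 (build GRCm38, GENCODE positions). *S100a1* (chr3:90511034-90514392, minus strand) and *S100a13* (chr3:90514435-90524581, plus strand) stand head to head with 42 bases between them. Among the 8 members, *S100a4* (chr3:90603771-90606045, plus strand) is followed after 6836 bases by *S100a6* (chr3:90612882-90624181, plus strand). Other genes lying between members were not looked for. *S100a8* (chr3:90668978-90670035, plus strand) and *S100a9* (chr3:90692632-90695721, minus strand) are 22596 bases apart. *S100a11* (chr3:93520488-93526287, plus strand) and *S100a10* (chr3:93555080-93564643, plus strand) form a second group further along the chromosome. Among the 8 gene models, that of *S100a4* alone overlapped another one, *Gm42674* on the same strand, so reads from the shared stretch could belong to either.

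Among members with at least 10 UMIs in both libraries, levels differed most for *S100a4*, *S100a6* and *S100a8*, which were at least 2-fold higher in the tumor library. Of 12936 genes that reached 10 UMIs in both libraries, 4.30% were at least 2-fold higher in tumor and 5.16% at least 2-fold lower, and the median gene had a log2 ratio (tumor over control) of -0.07. Of the 8 members 7 reached 10 UMIs in each library, 3 of those 7 were at least 2-fold higher and 0 were at least 2-fold lower, and their median log2 ratio was -0.03. With the mean of each cell's CPM the log2 ratio of *S100a8* was 0.73, no longer 2-fold. That mean kept 1 control barcode, described below, in which *S100a8* had 293 of 2604 UMIs, and its part was not tested. When the tumor clusters described below were weighted by their UMI shares in control, *S100a4*, *S100a6* and *S100a8* were each less than 2-fold higher in tumor. Under the reverse weighting *S100a6* was also less than 2-fold higher and *S100a4* was not higher in tumor, without an interval for the weighted levels.

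**Figure D1:**
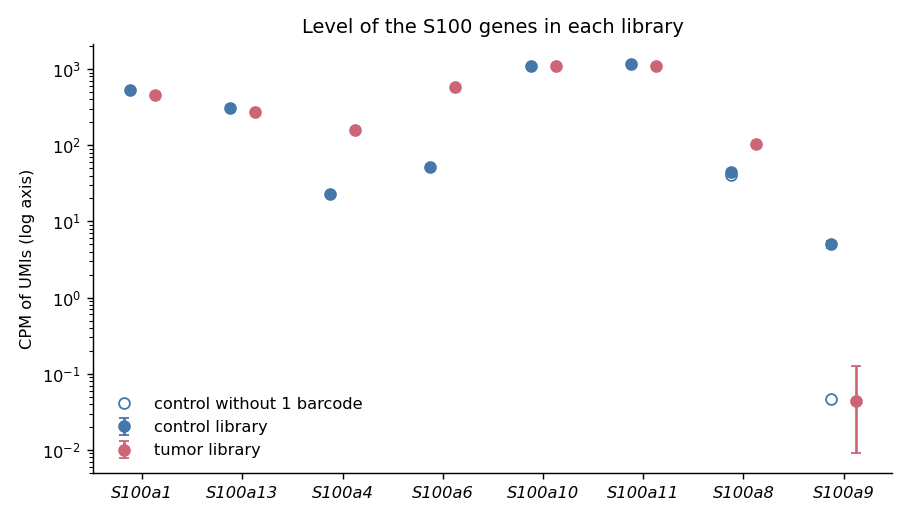
Level of each S100 gene as CPM of UMIs summed over kept cells (log axis) in the control and tumor libraries, with exact 95% Poisson intervals that are mostly narrower than the points. Open points give the control library without the 1 barcode that held 321 of its 324 *S100a9* UMIs; *S100a4*, *S100a6* and *S100a8* are the members with a higher point in tumor.

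*S100a6* had the largest ratio of the 7 members with at least 10 UMIs in both libraries. Its level was 52.4 CPM (50.6 to 54.2) in control and 578 CPM (572 to 584) in tumor, a log2 ratio of 3.46 (3.41 to 3.52). *S100a4* was at 23.0 CPM (21.9 to 24.2) in control and 161 CPM (158 to 164) in tumor, a log2 ratio of 2.80 (2.73 to 2.88). The intervals of the libraries did not overlap for either gene.

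The bases before *S100a4* and *S100a6* are shown because the UMIs of these genes were correlated across cells, as described below. The windows are the 250 bases before the RefSeq start (GRCm38.p6), read 5′ to 3′ on the strand of the gene, with matches to 5 searched motifs in capitals. The motifs were the TATA box as TATAAA, the AP-1 motif as TGANTCA, the C/EBP motif as TTNNGNAA, the PU.1 motif as GAGGAA and an NF-kB-like motif of GGG and CC with any 5 bases between, each on both strands and with overlaps allowed. The *S100a4* window is chr3:90603520-90603769 and the *S100a6* window chr3:90612644-90612893, both on the plus strand.
S100a4: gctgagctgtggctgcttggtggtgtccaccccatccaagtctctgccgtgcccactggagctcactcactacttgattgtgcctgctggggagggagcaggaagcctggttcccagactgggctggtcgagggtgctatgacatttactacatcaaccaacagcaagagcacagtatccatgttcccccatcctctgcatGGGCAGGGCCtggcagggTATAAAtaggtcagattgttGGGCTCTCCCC
S100a6: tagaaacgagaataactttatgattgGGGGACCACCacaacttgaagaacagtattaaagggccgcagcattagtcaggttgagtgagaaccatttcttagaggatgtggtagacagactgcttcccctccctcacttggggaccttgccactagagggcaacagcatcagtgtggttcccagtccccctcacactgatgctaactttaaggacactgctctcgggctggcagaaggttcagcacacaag

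The *S100a4* window held a TATA box motif from 31 bases before the start and NF-kB-like matches, and the *S100a6* window held 1 NF-kB-like match and none of the other motifs. Over all 32851 windows of that length in the table, 12.4% held the TATA box motif, 6.75% the AP-1 motif, 36.8% the C/EBP motif, 23.3% the PU.1 motif and 45.8% the NF-kB-like motif. RefSeq windows were found for 7 of the 8 members.

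*S100a10* and *S100a11*, the annexin partners, were the most abundant members and nearly level between libraries. *S100a10* was at 1107 CPM (1099 to 1115) in control and 1087 CPM (1080 to 1095) in tumor, a log2 ratio of -0.03. *S100a11* was at 1177 CPM (1169 to 1185) in control and 1104 CPM (1096 to 1112) in tumor, a log2 ratio of -0.09. Both were near the median gene, and centring on that gene turned the log2 ratio of *S100a10* to 0.042.

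*S100a1* was at 527 CPM (521 to 532) in control and 462 CPM (457 to 467) in tumor, a log2 ratio of -0.19 (-0.21 to -0.17). *S100a13*, which shares its start region with *S100a1*, was at 304 CPM (300 to 308) in control and 274 CPM (270 to 278) in tumor, a log2 ratio of -0.15 (-0.18 to -0.12). These genes were lower in tumor by less than 1.5-fold.

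*S100a8* was at 45.2 CPM (43.6 to 46.8) in control and 103 CPM (101 to 106) in tumor, a log2 ratio of 1.20 (1.13 to 1.26). *S100a9* was at 4.996 CPM (4.47 to 5.57) in control, from 324 UMIs, and at 0.0436 CPM in tumor, from 3 UMIs. A single control barcode decided the *S100a9* level, and without it both libraries held 3 *S100a9* UMIs, a ratio of 0.943 (0.126 to 7.04). Without that barcode *S100a8* was at 40.7 CPM (39.1 to 42.2) in control and its log2 ratio was 1.35 (1.28 to 1.41).

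The bases before *S100a8* and *S100a9* are shown because these neighbours, whose proteins act as 1 complex, were found in different numbers of cells. The *S100a8* window is chr3:90668821-90669070 on the plus strand, which begins before and ends inside the GENCODE gene model, and the *S100a9* window is chr3:90695722-90695971 on the minus strand, with capitals as above.
S100a8: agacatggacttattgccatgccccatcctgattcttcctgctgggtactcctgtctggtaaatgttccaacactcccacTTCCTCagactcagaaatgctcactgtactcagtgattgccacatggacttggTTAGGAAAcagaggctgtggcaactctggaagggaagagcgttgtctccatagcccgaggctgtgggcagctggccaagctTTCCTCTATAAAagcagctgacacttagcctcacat
S100a9: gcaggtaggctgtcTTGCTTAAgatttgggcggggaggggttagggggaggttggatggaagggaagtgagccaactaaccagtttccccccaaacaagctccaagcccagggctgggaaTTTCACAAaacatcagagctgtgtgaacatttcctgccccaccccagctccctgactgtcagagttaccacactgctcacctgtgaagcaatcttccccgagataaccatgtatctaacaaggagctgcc

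The *S100a8* window held a TATA box motif from 30 bases before the start, 1 C/EBP match and 2 PU.1 matches on the opposite strand. The *S100a9* window held 2 C/EBP matches and none of the other motifs. A match is a run of letters and was not tested as a site.

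*S100a9* came from few cells. Of the 324 control UMIs 321 were in 1 barcode of 2604 UMIs and 814 genes, which also held 293 *S100a8* UMIs. That barcode had UMIs of 7 of the 12 neutrophil markers, among them 49 of *Retnlg*, 9 of *Il1r2*, 7 of *Hdc* and 2 of *Ly6g*, and 2 UMIs over the 12 AM markers. The other 3 control UMIs were in 3 further cells and the 3 tumor UMIs in 2 cells, so that 4 control cells (0.0647%, 0.0176 to 0.166) and 2 tumor cells (0.0261%, 0.00316 to 0.0942) had any *S100a9*. In the 5 cells other than that barcode the AM markers summed to between 101 and 269 UMIs.

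*S100a8* was spread over many cells and was present without *S100a9*. A *S100a8* UMI was found in 1548 control cells (25.03%, 24.0 to 26.1) and 3219 tumor cells (42.0%, 40.9 to 43.1). After each cell was thinned to 3800 UMIs, which left out 595 control and 729 tumor cells, the shares were 11.8% (10.95 to 12.7) of 5590 control cells and 25.9% (24.9 to 27.0) of 6937 tumor cells. Had the thinned UMIs been spread evenly, 13.3% of control and 30.3% of tumor cells would have had one. Over all kept cells, a spread in proportion to depth would have given 36.2% in control and 56.5% in tumor. The measured shares were under these values both thinned and unthinned, and the gap was wider unthinned. The control value of 36.2% counts the UMIs of the 1 barcode above. Both *S100a8* and *S100a9* were seen in 2 control and 2 tumor cells.

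**Figure D2:**
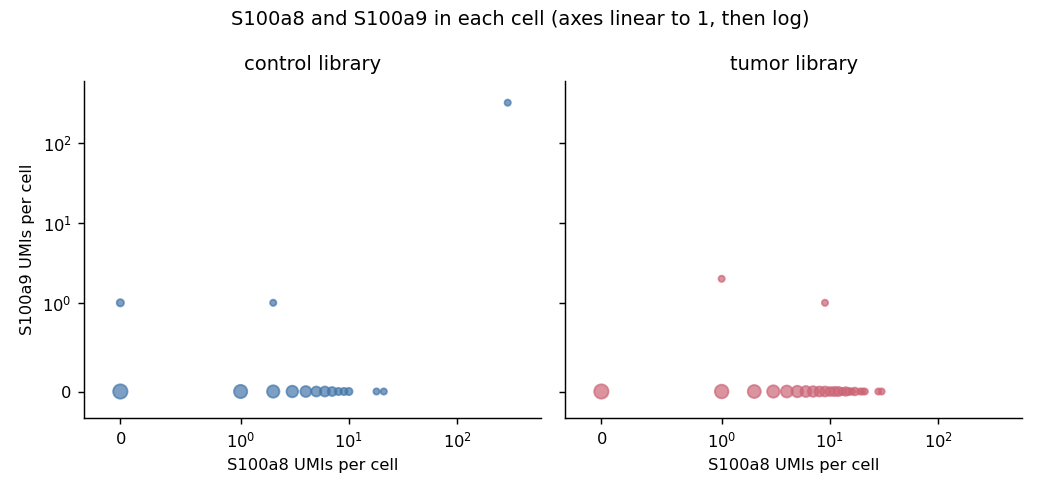
*S100a8* against *S100a9* UMIs per kept cell in each library, on axes that are linear to 1 and logarithmic above, with larger points for more cells. One control barcode with 293 *S100a8* and 321 *S100a9* UMIs stands apart, while all other cells lie at 0, 1 or 2 *S100a9* UMIs.

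The number of *S100a8* UMIs in a cell was low. The highest cell other than the control barcode above had 21 UMIs in control, and the highest tumor cell had 30. It took 331 control cells (5.35%) and 681 tumor cells (8.88%) to reach 50% of the *S100a8* UMIs. The 1% of cells with most of the gene held 23.5% of its UMIs in control, 15.1% without the 1 barcode, and 12.7% in tumor. For *S100a4* the same share was 42.4% in control and 19.6% in tumor, and for *S100a10* it was 3.59% and 4.91%.

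The summed neutrophil markers were not higher in tumor, but most of the sum was *Mmp8*, and single genes of the list went both ways. The 12 genes summed to 64.2 CPM in control, with *Camp*, *Ngp* and *Ltf* at 0. In tumor they summed to 48.7 CPM, with *Retnlg*, *Ly6g* and *Ngp* at 0. *Mmp8* alone was at 43.3 CPM in control and 26.5 CPM in tumor, and the sum without it was not computed. Of 5 that reached 10 UMIs in both libraries, 2 were higher in tumor, where 41.5% of all genes counted were, *Csf3r* with a log2 ratio of 0.30 and *Il1r2* with 1.29, and *Mmp8*, the most abundant, was at -0.71. *Cd177* had 1 UMI in control and 59 in tumor. In cells with no UMI of any neutrophil marker *S100a8* was at 39.7 CPM (37.7 to 41.7) in 3866 control cells and 102 CPM (99.6 to 105) in 5492 tumor cells.

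Free RNA in the droplets can place UMIs in cells that do not use a gene, and its part in these values was not tested. In cluster N, a mixed cluster of other cells described below, *S100a8* was found in 2 of 26 tumor cells (7.69%, median 5845 UMIs) and, in control, in the 1 barcode above of 22 (median 3786 UMIs). The share over all kept tumor cells was 42.0% at a median of 8264 UMIs.

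Shares of cells set the other members apart. In thinned cells *S100a6* was found in 7.98% (7.28 to 8.72) of control and 44.8% (43.7 to 46.0) of tumor cells, and *S100a4* in 5.01% (4.45 to 5.61) and 22.3% (21.4 to 23.3). An even spread of the tumor UMIs would have put *S100a6* in 85.9% and *S100a4* in 43.2% of cells, so both genes were held by a part of the cells. The variance of *S100a6* counts per thinned tumor cell was 8.76 times their mean, against 1.47 times for *S100a8*. The means were 1.96 and 0.361 UMIs, and for unevenly held genes this ratio grows with the mean, so the values are not like for like. Cells of cluster N were included. *S100a10* was found in 96.0% of control and 94.7% of tumor cells, *S100a11* in 95.7% and 94.2%, *S100a1* in 76.0% and 73.4%, and *S100a13* in 66.9% and 62.5%.

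**Figure D3:**
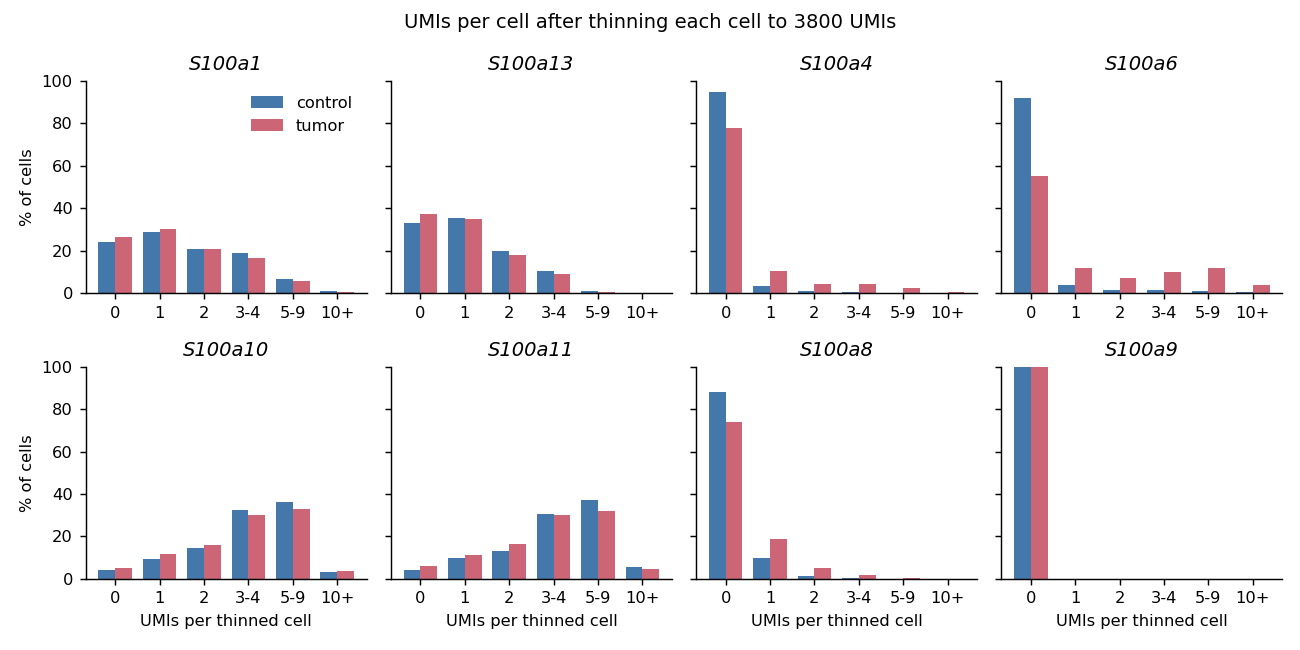
Share of cells by number of UMIs of each S100 gene after each cell was thinned to 3800 UMIs, for the control and tumor libraries. *S100a10* and *S100a11* are found in over 94% of cells, *S100a6* reaches 44.8% of tumor cells with a tail of high counts, and *S100a9* is at 0 in nearly all cells.

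*S100a4* and *S100a6* were the most correlated pair of members. Across thinned cells, the Pearson correlation of log2(UMIs + 1) was 0.48 in 5590 control cells and 0.61 in 6937 tumor cells, as a description of cells that share a library. *S100a6* was found in 48.9% (42.9 to 54.9) of control cells with *S100a4* and 5.82% (5.20 to 6.48) of those without it. In tumor these shares were 88.6% (87.0 to 90.2) and 32.2% (31.0 to 33.5). Most cells with *S100a6* had no *S100a4* UMI, since *S100a4* was found in 30.7% (26.5 to 35.2) of 446 control cells with *S100a6* and 44.2% (42.4 to 45.9) of 3111 such tumor cells.

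The other pairs had lower correlations. *S100a10* and *S100a11* had a correlation of 0.22 in control and 0.28 in tumor, and the head-to-head genes *S100a1* and *S100a13* of 0.03 and 0.09. These values depended on thinning: in unthinned cells scaled to a common total they were 0.43 and 0.50 for *S100a10* and *S100a11*, and 0.22 and 0.20 for *S100a1* and *S100a13*. *S100a8* had a correlation of at most 0.10 with any other member but *S100a9* in control and at most 0.11 in tumor, or at most 0.22 and 0.18 unthinned. Likeness was ranked over genes with a mean of at least 0.05 UMIs per thinned cell, with ribosomal protein and mitochondrial genes left out. Among these *S100a4* and *S100a6* were each most like the other in both libraries.

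Next in likeness to *S100a6* were *Fn1*, which encodes fibronectin (0.23 in control and 0.45 in tumor), and in tumor *Spp1*, which encodes osteopontin (0.41). *S100a10* and *S100a11* were most like *Tmsb4x*, an actin-binding peptide gene, in control (0.32 and 0.29) and most like each other in tumor. *S100a1* was most like *Fabp5*, a fatty acid-binding protein gene, in control (0.26) and *Ftl1*, a ferritin gene, in tumor (0.24). *S100a8* was most like *Cd63* in control (0.12) and *Lyz2*, the lysozyme gene, in tumor (0.19).

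**Figure D4:**
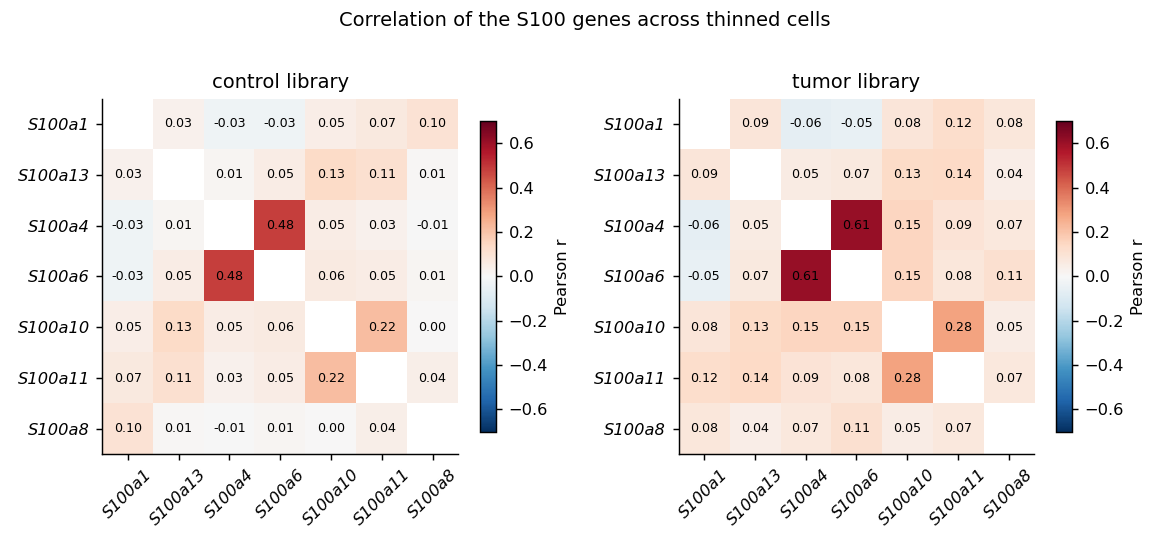
Pearson correlation between S100 genes across thinned cells, with the value in each square, for control and tumor. *S100a4* and *S100a6* have the highest value in both libraries (0.48 and 0.61), followed by *S100a10* and *S100a11* (0.22 and 0.28).

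The cells fell into 14 clusters, lettered A to N by size, that were built without S100 genes. Clusters are a description, since genes that vary with the members helped to define them. Clusters B (2216 cells, led by *Vps37b*, *Il1b* and *Osm*), E (904 cells, led by *Apoe*, *Hpse* and *Slamf7*) and K (312 cells, led by *Cxcl9*, *H2-Eb1* and *Mmp14*) were each over 90% tumor after weighting for library size, at 95.8%, 96.1% and 93.3%.

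Among clusters of at least 50 cells of the library, *S100a4* and *S100a6* were highest in E and B in tumor and in B in control. The tumor level of *S100a6* was 1250 CPM (1229 to 1271) in E, followed by B with 936 CPM (922 to 951) and K with 490 CPM (468 to 512). It was lowest, among the same clusters, in A with 26.7 CPM (22.7 to 31.3). *S100a4* had 351 CPM (340 to 362) in E, 273 CPM (265 to 281) in B and 6.29 CPM (4.40 to 8.71) in A. Clusters B and E held 75.4% of the tumor *S100a4* UMIs and 73.2% of the *S100a6* UMIs at 39.9% of all UMIs.

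The few control cells in B and E had levels near those of tumor, and those in K had a lower *S100a6* but not *S100a4* level. In the 76 control cells of B *S100a6* was at 846 CPM (777 to 919) and *S100a4* at 318 CPM (276 to 364), and in the 29 control cells of E *S100a6* was at 1368 CPM (1241 to 1505) and *S100a4* at 401 CPM (334 to 478). Between the libraries within B, the log2 ratio was 0.15 (0.02 to 0.27) for *S100a6* and -0.22 (-0.42 to -0.01) for *S100a4*, and within E it was -0.13 (-0.27 to 0.01) and -0.19 (-0.45 to 0.08). In K *S100a6* was at 232 CPM (166 to 316) in control, below the tumor interval, and *S100a4* was at 290 CPM (215 to 382) in control and 228 CPM (214 to 244) in tumor, where the intervals overlapped. Of the 17 control cells of K, 4 had an *S100a6* UMI and 3 an *S100a4* UMI.

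Outside B and E, *S100a6* was higher in tumor in most clusters and *S100a4* in part of them. Among 9 clusters other than B and E that had 25 cells and 10 UMIs of the gene or more in both libraries, *S100a6* was higher in tumor in 8, from -0.43 on the log2 scale in A to 2.87 in the proliferating cluster J, which is led by *Cenpf* and *Top2a*. *S100a4* was higher in 4 of 7 such clusters, from -1.45 in A to 2.95 in J. The interval was above 0 in 7 and below 0 in 1 of the 9 clusters for *S100a6*, and above 0 in 3 and below 0 in 2 of the 7 for *S100a4*. Cluster F, at 1.87 for *S100a6*, had 21.0% of its cells among those with the highest doublet scores.

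Markers of other macrophages and monocytes were higher beside them. Of 8 monocyte genes that reached 10 UMIs in both libraries 7 were at least 2-fold higher in tumor, against 4.30% of all genes counted, and all 9 genes of the list had UMIs in both libraries. Their summed level ran in tumor from 7.05 CPM in H to 138 CPM in E among clusters of at least 50 cells other than N, with 117 CPM in B and 89.2 CPM in K. The 7 interstitial macrophage genes summed to 105 CPM in tumor, with 319 CPM in E, and to 21.4 CPM in control, with *Folr2* at 0. All 12 AM markers had UMIs in B, E and K of tumor and summed there to 13739, 10675 and 14712 CPM, against 19542 CPM in A. Cluster J of tumor, at 13022 CPM, was also below B and K. Among them *Marco*, a scavenger receptor gene of AMs, was at 8.74 CPM in B and E together and 341 CPM in the other clusters without N. By flow cytometry the study described AMs as Siglec-F+, F4/80+ and CD11b-, and the CD11b+ macrophages of tumor-bearing lungs as Siglec-F-. The methods do not list the markers used for the sort behind these libraries. The part of such cells in the S100 levels was not tested.

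*S100a8* was higher in tumor in each of the 11 clusters compared, and the interval was above 0 in all 11. The log2 ratio was lowest in C at 0.31 (0.09 to 0.53) and highest in I at 2.33 (1.15 to 3.57), a cluster of shallow cells led by *Lncpint*, *Neat1* and *Gm26917*. In cluster A, which held 42.1% of control cells, *S100a8* was at 30.7 CPM (28.6 to 32.9) in control and 64.3 CPM (57.9 to 71.2) in tumor. Among clusters of at least 50 cells of the library, its highest tumor levels were 186 CPM (178 to 195) in E and 179 CPM (166 to 193) in K, which overlapped, and its highest control level was 76.7 CPM (70.5 to 83.3) in H.

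The mix of clusters bore differently on the members, and the outcome depended on which library gave the weights. With cluster N left out and the tumor clusters weighted by their UMI shares in control, *S100a6* came to 98.7 CPM in tumor, against 527 CPM unweighted and 50.1 CPM in control. *S100a4* came to 36.6 CPM, against 159 CPM and 22.8 CPM. *S100a8* came to 77.3 CPM, against 104 CPM and 40.7 CPM. At these weights each of these genes was higher in tumor by less than 2-fold. With the control clusters weighted by their shares in tumor instead, control came to 459 CPM for *S100a6*, against 527 CPM in tumor. For *S100a4* it came to 168 CPM, against 159 CPM in tumor, so that *S100a4* was no longer higher in tumor. No interval was computed for weighted levels. B, E and K, which held 45.6% of the tumor UMIs, had only 76, 29 and 17 control cells, so a lower level of *S100a4* in tumor is not shown. *S100a8* came to 50.4 CPM in control, against 104 CPM in tumor.

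**Figure D5:**
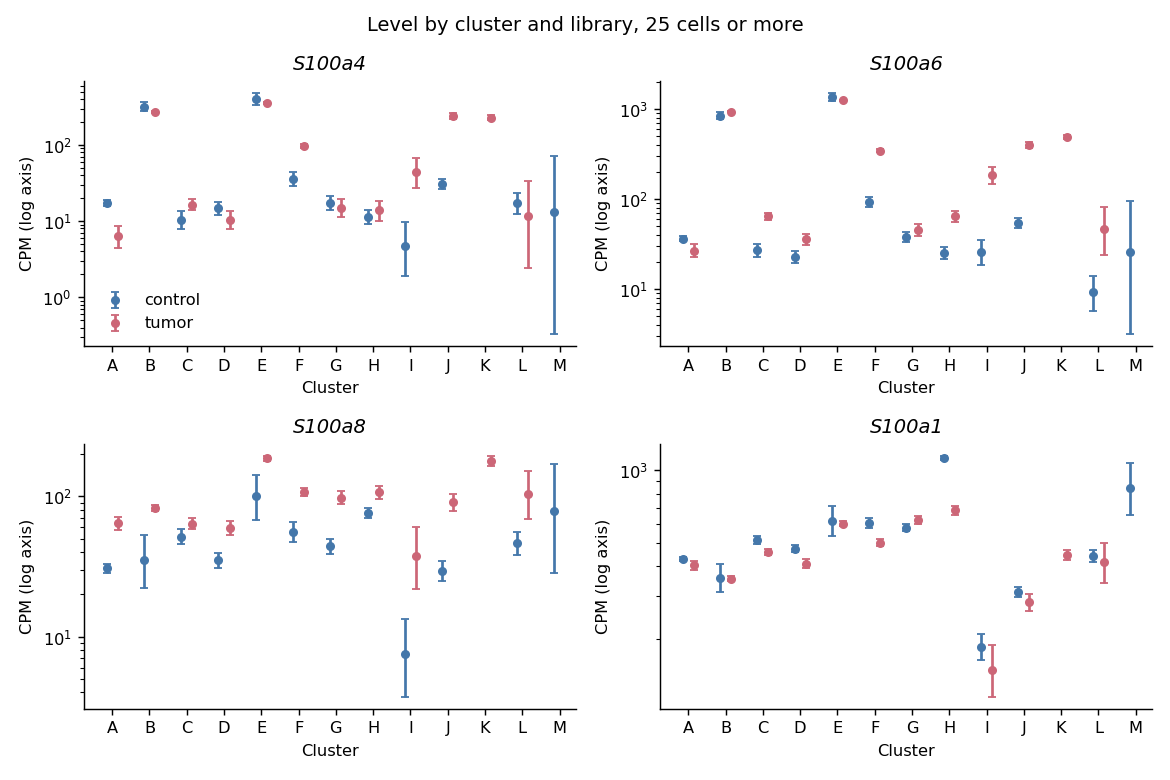
Level (CPM, log axis) of *S100a4*, *S100a6*, *S100a8* and *S100a1* by cluster in control and tumor, for clusters with at least 25 cells of that library and a UMI of the gene, N left out, with exact 95% Poisson intervals. *S100a4* and *S100a6* are high in B and E in both libraries, while *S100a8* is higher in tumor in all 11 clusters compared.

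For the following members the order covers clusters of at least 50 cells of the library, which leaves out M and N in both libraries, E and K in control and L in tumor. *S100a1* was highest in cluster H, led by *Mmp12*, *Fstl1* and *Mfge8*, in both libraries. It was at 1124 CPM in H of control and 681 CPM in H of tumor, a log2 ratio of -0.72 (-0.79 to -0.66), the lowest of its 11 clusters. *S100a13* was highest in G, led by *Ear1*, at 357 CPM in control, where the interval overlapped that of F, and 353 CPM in tumor. Of the clusters not ranked, E with 379 CPM (313 to 454) in 29 control cells was above G. So were M with 390 CPM (263 to 557) in 36 control cells and N with 571 CPM (493 to 658) in 26 tumor cells, and the others were lower. *S100a10* was highest in the proliferating cluster J, at 1313 CPM in control and 1412 CPM in tumor. The 14 tumor cells of M, not ranked, were at 2102 CPM (1521 to 2831) for *S100a10* and 733 CPM (410 to 1209) for *S100a1*.

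Cluster N was a mix of other cells, led by *Dcn*, *Col3a1*, *Igfbp4* and *Nppc*, with *Lum* and *Igkc* among its first 10 genes. In its 26 tumor cells the fibroblast list summed to 6330 CPM, above the endothelial list with 1002 CPM, and in its 22 control cells the B cell list summed to 5105 CPM and the endothelial list to 2788 CPM, above the fibroblast list with 386 CPM. N held 0.339% of the tumor cells but 9.34% of the tumor *S100a6* UMIs. These 3714 UMIs came from 18 of 26 cells, with 939 in the highest one. The 8 fibroblast markers summed to 33.3 CPM in the tumor library and 1.42 CPM in control, where *Lum* was at 0. Without N the *S100a6* log2 ratio was 3.39.

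Of the other S100 genes, *S100a16* had 27 UMIs in control and 80 in tumor, a log2 ratio of 1.48 (0.84 to 2.17), and *S100a14* had 16 and 17. *S100a2*, *S100a3*, *S100a5*, *S100a7a*, *S100b*, *S100g* and *S100z* had under 10 in each library, and *S100a7l2* was not matched.

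The annexin partners differed by less than 2-fold. All 9 genes of the list of annexins and *Ahnak*, which encodes a scaffold bound by the *S100a10* protein complex, were higher in tumor, 0 of the 9 by 2-fold, with a median log2 ratio of 0.27. Of all 12936 genes counted, 41.5% were higher in tumor by any amount. *Anxa2*, the main partner of *S100a10*, was at 1247 CPM in control and 1333 CPM in tumor, and *Anxa3* had the highest log2 ratio of the list, 0.75 (0.70 to 0.80). Among 6 receptor genes described for extracellular S100 proteins, 3 were higher in tumor and 1 was 2-fold lower, against 5.16% of all genes counted that were 2-fold lower. That gene was *Ager*, also known from alveolar epithelium, at 5.67 CPM in control and 2.81 CPM in tumor. The 8 epithelial markers summed to 95.4 CPM in control and 68.8 CPM in tumor, and their part in the *Ager* level was not tested. *Tlr4*, a receptor for calprotectin, was at 45.5 and 50.8 CPM, and *Cd36*, a fatty acid and lipoprotein receptor, at 316 and 214 CPM.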

How the data were processed

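The deposited tables hold UMI counts that the authors obtained from 10x Genomics 3′ libraries, for each gene in each barcode, without normalization. The submitters' processing notes name bcl2fastq 2.20, Cell Ranger 4.0.0 and build mm10, while the paper's methods name a different Cell Ranger release. No quality filter or doublet removal had been applied to the deposited counts.

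The methods mention hashtag reads for assigning barcodes to samples, which were not used here: groups follow the labels of the libraries. Barcodes with at least 500 genes and at most 10% mitochondrial UMIs were kept, doublets included. Ensembl identifiers were matched to symbols for 32158 of 32285 genes. CPM was computed from summed UMIs, with exact Poisson, conditional binomial and Clopper-Pearson intervals at 95%. For shares and correlations 3800 UMIs were drawn without replacement from each cell deep enough. Clusters came from 2000 variable genes without S100 and ribosomal genes, 100 components, a mutual nearest neighbour correction between libraries and the Leiden method at resolution 1. Depth sets the precision: 10 UMIs in each library were required for a ratio to be counted. PCR duplicates are removed by UMIs, and the intervals cover counting error only.

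The genes named are the members, other S100 genes, annexins with Ahnak, S100 receptors, marker genes, leading genes of clusters, and the 3 genes most correlated with each member. The members, lists and tests were chosen with earlier results of these data known. Alternatives changed the cell filter, doublets, scaling, thinning, correlation and clustering. Scrublet's automatic threshold called 0 doublets, so the alternative removed the highest scores, 274 control and 410 tumor cells. Scripts were tested on simulated data. Python 3.11.15, numpy 2.4.6, scipy 1.17.1, pandas 2.3.3 and scanpy 1.11.5 were used.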

Additional observations from a re-analysis of the deposited data

Results flagged for a closer look

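Barcodes that failed the quality filter, 2300 in control and 1509 in tumor, entered none of the comparisons but the alternative with no filter, and 3 members had levels there that were higher in tumor than in control. *S100a6* was at 208 CPM (188 to 229) in the tumor barcodes left out and 26.4 CPM (20.9 to 32.9) in those of control. *S100a4* was at 38.2 CPM (30.0 to 48.0) and 10.7 CPM (7.30 to 15.1). *S100a8* was at 27.9 CPM (20.9 to 36.4) and 14.3 CPM (10.4 to 19.3). These barcodes were shallow, with medians of 1067 UMIs in tumor and 1002 UMIs in control.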

How the results depend on the processing

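No paired analysis was possible because each condition has 1 library. *S100a4*, *S100a6* and *S100a8* were higher in tumor under each alternative run but 1. With control clusters weighted by their shares in tumor, *S100a4* was at 168 CPM in control and 159 CPM in tumor, with no interval computed. That weighting put *S100a6* at 459 CPM in control and 527 CPM in tumor, less than 2-fold apart. When tumor clusters were weighted by their shares in control, each of these genes was higher in tumor by less than 2-fold. With the mean of each cell's CPM the log2 ratios were 2.62 for *S100a4*, 3.14 for *S100a6* and 0.73 for *S100a8*, the last no longer 2-fold. That control mean kept the barcode with most *S100a9*. Without the 1% of cells with most of each gene they were 3.29, 3.97 and 1.39. Centred on the median gene *S100a6* was at 3.53 and *S100a8* at 1.26, and *S100a10* turned to 0.042. Without cluster N *S100a6* was at 3.39 and *S100a8* at 1.35. *S100a8* was also at 1.35 with at least 1000 genes per cell and without the control barcode with most *S100a9*, an alternative added after the data were seen. With a minimum of 1 UMI, 1 member, *S100a9*, was 2-fold lower in tumor, which rests on that barcode. Shares of cells with *S100a8* were 25.03% in control and 42.0% in tumor unthinned, and 1.79% and 7.02% at 2 UMIs or more. The 1% of cells with most *S100a8* held 19.1% and 11.2% of thinned UMIs, 26.2% and 14.2% with no filter, and 15.1% in control without that barcode. Thinning left out that barcode, and the single *S100a9* UMI left in control was 100% in 1 cell. The Spearman correlation of *S100a4* and *S100a6* in control was 0.36. *S100a8* was higher in tumor in each cluster compared under 4 other clusterings, with the lowest log2 ratio at 0.19 without correction between libraries. Of the remaining values under alternatives, 38 of these leading results and 155 of single genes or pairs stayed within the counting interval, 0.1 in correlation or 1.5 times a count, and 49 of the latter moved without a change of sign. For the changes above whose construction does not show it, the cause was not tested.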
